A study of Arabidopsis thaliana with 6 samples.

Results

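The 6 genes described here are linked to the death and self-digestion of water-conducting vessel cells. They are the cell death markers DMP4 (AT4G18425), EXI1 (AT2G14095) and PASPA3 (AT4G04460), the serine carboxypeptidase gene scpl48 (AT3G45010), and the vacuolar processing enzyme genes GAMMA-VPE (AT4G32940) and ALPHA-VPE (AT2G25940). They were chosen by symbol or locus in the array's probe annotation, out of 16548 genes named there. Each of the 6 had 1 probe among the 16722 probes paired with 1 gene, so no choice between such probes arose. No other probe carried the same values. The 759 probes paired with several genes were not counted here.

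A vessel element of the xylem ends its development by dying. It first lays down a thick patterned wall, then fills its large vacuole with proteases and nucleases, and the rupture of the vacuole releases these enzymes and clears the cell to a hollow tube. NAC transcription factors of the VND family, to which VND1 belongs, switch on both the wall and the death programme. Vacuolar processing enzymes are cysteine proteases that mature other vacuolar proteins and take part in vacuole-driven cell death in other settings, such as defence.

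The samples came from suspension cells of Arabidopsis thaliana transformed with an estrogen-inducible VND1-GFP construct, which both groups carry. 3 arrays held RNA from induced cells, given 5 µM estrogen for 24 h, and 3 held RNA from uninduced cells, cultured for 24 h without it. Cultures of both groups were shaken at 124 rpm and 23 °C without light. The sources used here do not give the promoter driving the construct, the number of independent lines or the number of separate cultures. The p-values therefore cover no more than the spread among these arrays, and that spread may be technical. Estrogen-treated cells without the construct are not part of the comparison, so effects of VND1 and of estrogen cannot be told apart.

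Values are log2 probe values as the authors deposited them, and a difference of 1 is a 2-fold change. By the array numbers in their titles, replicate 1 of both groups make up a run of 2 arrays, and replicates 2 and 3 of both groups a run of 4. Array medians were 6.15 and 6.08 in the run of 2 and 5.41 to 5.55 in the run of 4, so each change is also given within the runs. Of all 38408 probes, 0.534% were higher in induced cells and 0% lower by limma with Benjamini-Hochberg adjustment over all probes at a threshold of 0.05. Without the adjustment, 1151 probes were higher and 1053 lower at a limma p under 0.05.

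Induced cells held more RNA of DMP4 (18.1-fold), EXI1 (6.46-fold) and PASPA3 (2.18-fold) by limma over all probes. The PASPA3 call was lost under several alternatives given below. scpl48 lay 1.68-fold higher and GAMMA-VPE 1.36-fold higher without passing the test, and the ALPHA-VPE values of the groups overlapped. In all, 3 of the 6 genes rose and 0 fell, against the background of 0.534% of probes higher. On the deposited values, every induced array lay above every uninduced array for 5 of the 6 genes, as held for 5.7% of all probes. GAMMA-VPE was among the 5, and its groups overlapped once each array's median was subtracted. Since the 6 were chosen with results of these data known, these shares describe them and are no test of the group. RNA was taken from whole cultures, so more cells entering the death programme and more RNA per cell cannot be told apart.

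**Figure D1:**
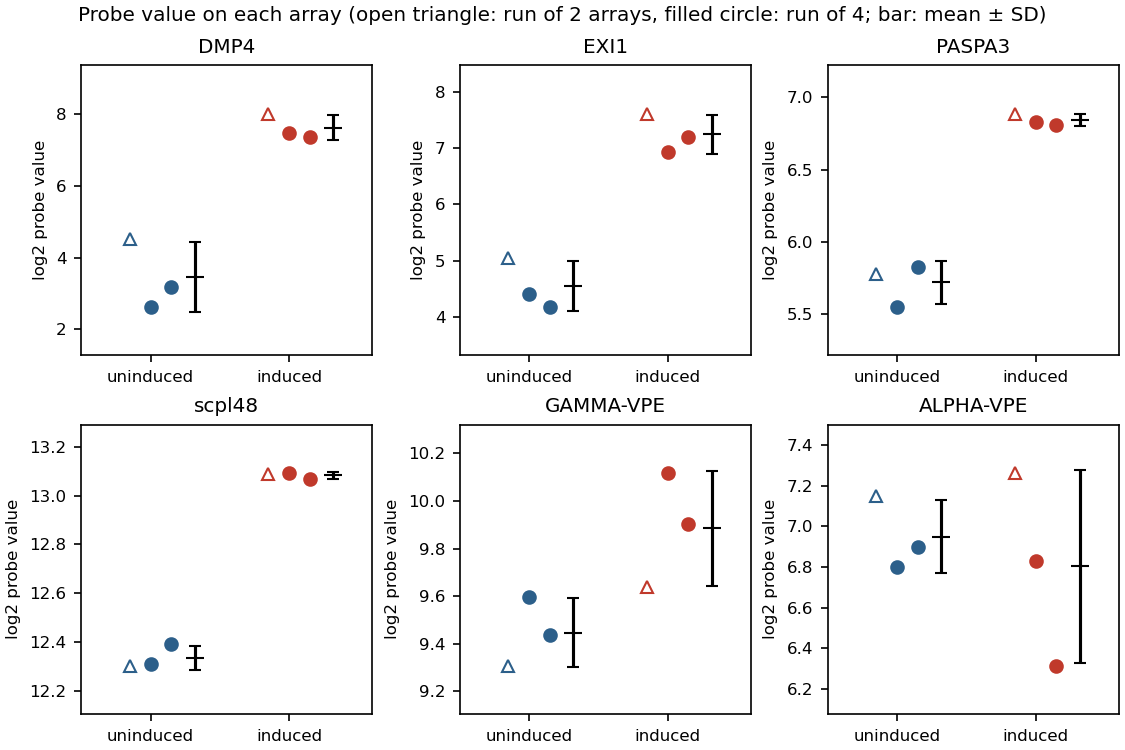
Log2 probe value (y axis) of each of the 6 genes on the 3 uninduced and 3 induced arrays, with open triangles for the run of 2 arrays, filled circles for the run of 4, and bars for the mean ± SD of 3 arrays; each panel has its own y range. The groups lie apart for every gene but ALPHA-VPE, with a gap of 2.84 for DMP4 and of 0.041 for GAMMA-VPE.

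DMP4 codes for a small membrane protein of the DUF679 family and is used as a transcript marker of developmental cell death. Its values were 8.02, 7.48 and 7.38 on induced replicates 1, 2 and 3, and 4.53, 2.63 and 3.18 on uninduced replicates 1, 2 and 3. The lowest induced array lay 2.84 above the highest uninduced one, and the uninduced arrays were spread more widely than the induced ones. The change was 4.18 ± 0.52 (SE; 95% confidence interval 2.89 to 5.46; limma adjusted p = 0.0491). That interval is a 7.43-fold to 44.0-fold rise. 44 of the 38408 probes had a larger rise.

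The spread of DMP4 among uninduced arrays followed the array-number runs. Uninduced replicate 1 lay 1.63 above the mean of the other 2 uninduced arrays, where the median probe lay 0.36 above, and induced replicate 1 lay 0.59 above the other induced arrays, where the median probe lay 0.45 above. The change was therefore 3.49 in the run of 2 and 4.52 in the run of 4. A difference in change between runs of 1.03 (95% confidence interval -0.10 to 2.17) did not pass the test (limma run by induction term, adjusted p = 0.824, with 0% of probes called and 2373 at an unadjusted p under 0.05). On uninduced replicates 2 and 3, DMP4 exceeded 6.87% and 13.2% of the probes of its array, and on uninduced replicate 1 it exceeded 21.9%. Background was not estimated from these files, so if the low values are background, the fold is a lower bound.

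EXI1 is a further transcript used, like DMP4 and PASPA3, to mark cells on the way to developmental death. It gave 7.61, 6.92 and 7.20 on induced replicates 1 to 3 and 5.05, 4.42 and 4.19 on uninduced replicates 1 to 3. In each group the array from the run of 2 was the highest, and the groups stood 1.87 apart at their nearest. The change was 2.69 ± 0.30 (SE; 95% confidence interval 1.96 to 3.43; limma adjusted p = 0.0334), and 107 probes rose by more. It was 2.56 in the run of 2 and 2.76 in the run of 4. After each array's median was taken away, the 6 values fell into closer groups, at 1.46 to 1.73 above the median in induced cells and 1.03 to 1.36 below it in uninduced cells.

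PASPA3 codes for an aspartic protease with a plant-specific saposin-like insert, of the kind stored in vacuoles. It gave 6.89, 6.83 and 6.81 on induced replicates 1 to 3, and 5.78, 5.55 and 5.83 on uninduced replicates 1 to 3. The induced arrays lay within 0.08 of each other and 0.98 or more above every uninduced array. The change was 1.12 ± 0.13 (SE; 95% confidence interval 0.79 to 1.45; limma adjusted p = 0.0429), with 1.11 in the run of 2 and 1.13 in the run of 4. Unlike the median probe, PASPA3 was nearly level between runs, 0.07 higher in the run of 2 among induced arrays and 0.09 higher among uninduced ones. Subtracting each array's median therefore widened its groups, to 0.74 to 1.43 above the median in induced cells and from -0.30 to 0.28 in uninduced cells, which still did not overlap. The limma call was lost under that centring (adjusted p = 0.275). It was also lost once the arrays were quantile-normalized (adjusted p = 0.119), and when the fit held only the run of 4 (adjusted p = 0.153).

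**Figure D2:**
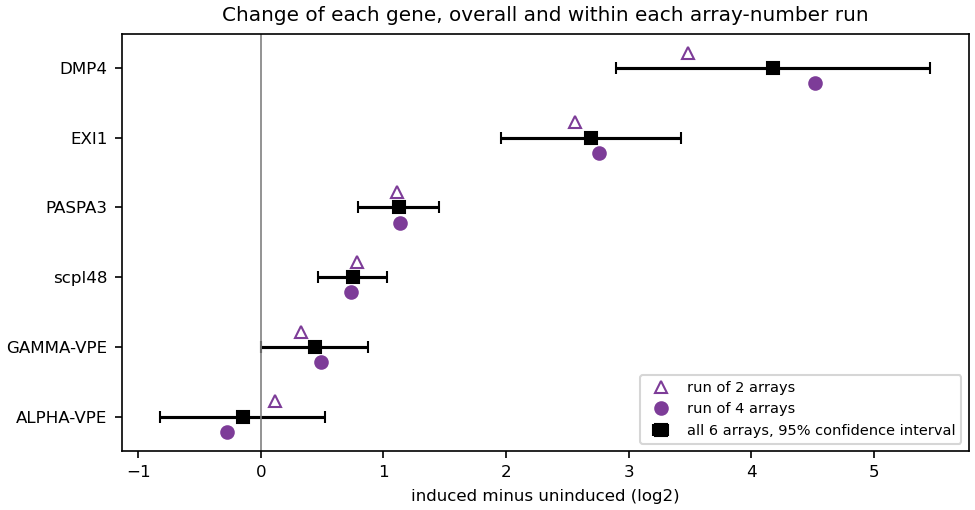
Induced minus uninduced log2 change (x axis) of each gene, with black squares and 95% confidence intervals from limma over 6 arrays, open triangles for the run of 2 arrays and filled circles for the run of 4. The values within runs lie close together for PASPA3 (1.11 and 1.13) and scpl48 (0.79 and 0.73), stand apart for DMP4 (3.49 and 4.52), and differ in sign for ALPHA-VPE (0.11 and -0.28).

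The remaining hydrolase genes were already above the array medians in uninduced cells, scpl48 and GAMMA-VPE well above and ALPHA-VPE by only 1.07 to 1.35. scpl48 codes for a serine carboxypeptidase-like enzyme and is another transcript used to mark developmental cell death. Its values were 13.09, 13.09 and 13.07 on induced replicates 1 to 3 and 12.30, 12.31 and 12.39 on uninduced replicates 1 to 3. On the deposited values, replicates were tighter than for any of the other 5 genes, with a residual SD of 0.037 against 0.73 for DMP4. The groups stood 0.68 apart. The difference was 0.75 ± 0.11 (SE; 95% confidence interval 0.47 to 1.03) and did not pass the test over all probes (limma adjusted p = 0.105). limma draws each probe's SD towards a common one of 0.251. When the run entered the limma fit as a block, scpl48 was called (adjusted p = 0.0318). That gave 4 of the 6 genes higher against 0.992% of probes higher in that fit. Subtracting each array's median widened the scpl48 groups, to 6.94 to 7.69 above the median in induced and 6.22 to 6.85 in uninduced cells. They still did not overlap. The residual SD was then 0.38, against 0.16 for EXI1, and scpl48 was not called (limma adjusted p = 0.99996). The induced scpl48 values exceeded 99.8% of the probes on each induced array, and the highest probe of those arrays lay between 13.90 and 14.01. Whether the scale limits values this high was not tested.

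GAMMA-VPE codes for the vacuolar processing enzyme of vegetative tissue best known for a caspase-1-like activity in cell death during defence. It gave 9.64, 10.12 and 9.90 on induced replicates 1 to 3, and 9.31, 9.60 and 9.44 on uninduced replicates 1 to 3. The groups did not overlap, but the lowest induced array was only 0.041 above the highest uninduced array. With each array's median subtracted they overlapped, at 3.49 to 4.71 above the median in induced and 3.23 to 4.12 in uninduced cells. Both of the lowest values within the groups came from the run of 2, opposite to the median probe. The difference was 0.44 ± 0.18 (SE, with a 95% confidence interval of 0.002 to 0.88 and limma adjusted p = 0.866). In this fit the interval reaches up to a 1.84-fold rise. The difference was 0.33 in the run of 2 and 0.49 in the run of 4, and with the run as a block the limma adjusted p was 0.200. After median centring it was 0.46 ± 0.37 (SE).

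ALPHA-VPE, the other vacuolar processing enzyme of vegetative tissue, gave 7.26, 6.83 and 6.31 on induced replicates 1 to 3 and 7.15, 6.80 and 6.90 on uninduced replicates 1 to 3. The groups overlapped, and both the highest and the lowest array were induced ones. The difference was -0.15 ± 0.27 (SE; 95% confidence interval -0.82 to 0.53; limma adjusted p = 0.9999), an interval that reaches up to a 1.44-fold rise. Its sign differed between the run of 2 (0.11) and the run of 4 (-0.28), and it was 0.10 without induced replicate 3, the lowest array. The difference in change between the runs did not pass the test (limma adjusted p = 0.955).

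For 4 of the 6 genes the RefSeq gene table of assembly TAIR10.1 has an overlapping neighbour. Of these neighbours, AT3G45020 beside scpl48 differed by 0.02 ± 0.49 (SE) and AT4G32930 beside GAMMA-VPE by -0.09 ± 0.15 (SE). PMP22 beside PASPA3 and ELF3 beside ALPHA-VPE were not analysed here, as no probe carried their names alone. DMP4 and EXI1 have no overlapping gene in that table.

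**Figure D3:**
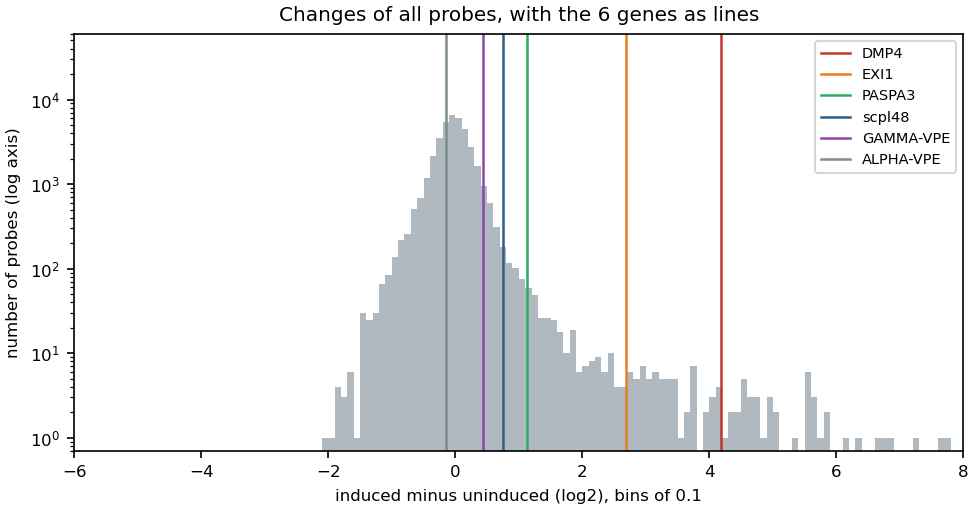
Number of probes (y axis, log axis) by induced minus uninduced log2 change (x axis, bins of 0.1) for all 38408 probes, with a line for each of the 6 genes. DMP4 (4.18) and EXI1 (2.69) lie in the sparse upper tail, PASPA3 (1.12) and scpl48 (0.75) on its slope, and ALPHA-VPE (-0.15) near the bulk, whose median is -0.02.

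The 3 calls rested on most of the arrays. DMP4 and EXI1 passed the test without uninduced replicate 1 (limma adjusted p = 0.0118 and 0.0357) and missed it without any of the other 5 arrays (adjusted p up to 0.294 and 0.213). PASPA3 missed it whichever array was left out (adjusted p 0.132 to 0.278). The changes themselves stayed positive. That of DMP4 moved most, from 3.77 to 4.72, against 2.51 to 2.94 for EXI1 and 1.04 to 1.18 for PASPA3. Over the whole array, the share of probes higher was 0.224%, 0.159% and 0.146% without induced replicates 1, 2 and 3, and 0.401%, 0.154% and 0.161% without uninduced replicates 1, 2 and 3. With whole groups and other settings, 4 of the 6 genes were higher with a variance trend and robust estimation (0.914% of probes higher), without the 25% of probes with the lowest mean (0.913%) and with array weights (1.19%). 3 were higher among probes with 1 gene (0.634%), and DMP4 and EXI1 alone after quantile normalization (0.828%), after median centring (0.62%) and in the run of 4 (0.365%).

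**Figure D4:**
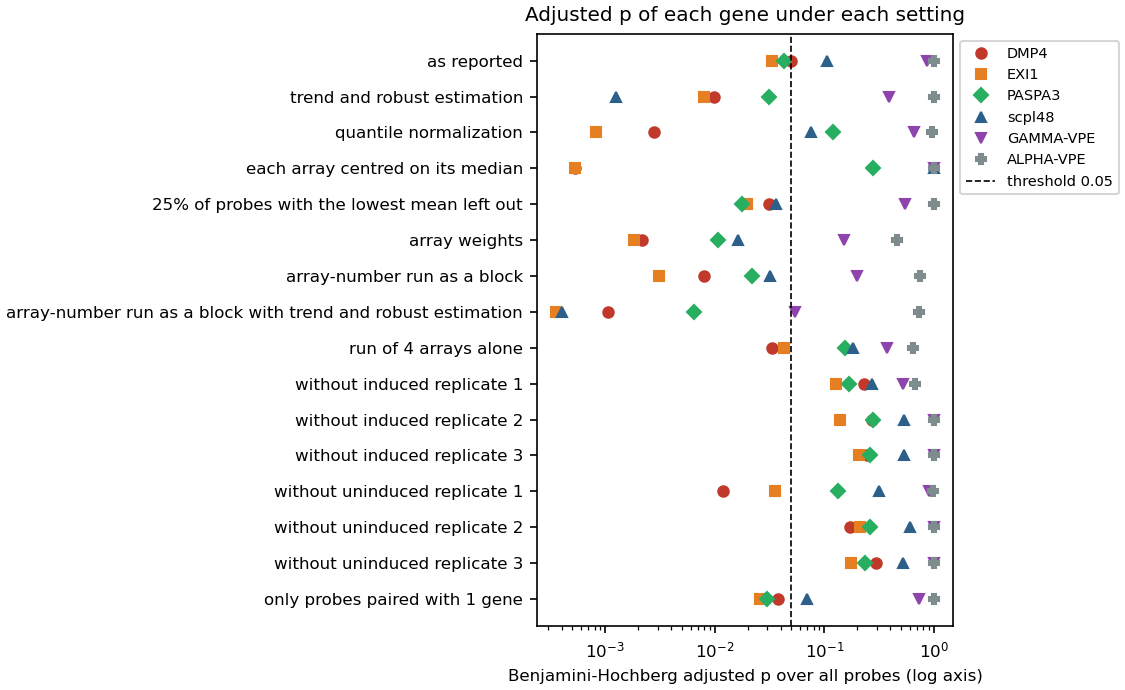
Benjamini-Hochberg adjusted p from limma (x axis, log axis) of each gene under each setting (y axis), with a dashed line at the threshold of 0.05. DMP4 and EXI1 stay left of the line in all 9 alternative settings that keep both groups whole or use the run of 4, and move right of it in 5 of the 6 that leave out an array; GAMMA-VPE comes nearest at 0.0543 and ALPHA-VPE does not come under 0.458.

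No measured relative of the 6 genes passed the test. 10 of 15 listed paralogues were measured, of which 0 rose and 0 fell by limma and 0 had an unadjusted p under 0.05. Over all probes 0.534% rose and 0% fell, so 0 calls among so few genes do not set apart the paralogues. Their median change was 0.20, against 0.94 for the 6 genes, -0.02 for all probes and -0.004 for all named genes. On every array AT3G02430, AT5G27370, BETA-VPE and scpl47 lay below the array median, and their signal over background was not estimated. Beside DMP4 stood 5 loci listed here as its family, which the annotation gives only as locus names, namely AT4G24310, AT3G02430, AT5G46090, AT1G09157 and AT5G27370. Their changes lay between 0.10 and 0.41. Of these, AT5G46090 gave 0.41 ± 0.23 (SE; 95% confidence interval -0.17 to 0.99), whose upper end is below the lower end of DMP4 (2.89).

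Of the aspartic proteases nearest to PASPA3, APA1 (AT1G11910) gave 0.03 ± 0.12 (SE), with array values of 11.65, 11.74 and 11.72 in induced and 11.60, 11.71 and 11.71 in uninduced cells, and AT1G62290 gave -0.07 ± 0.47. The groups overlapped for both. BETA-VPE, the vacuolar processing enzyme best known from seeds, gave 0.11 ± 0.74 (SE), and its values followed the runs, with 5.88 and 5.76 in the run of 2 and 3.89 to 4.12 in the run of 4. Within the scpl48 subgroup, SCPL49 gave 0.13 ± 0.11 (SE) and its induced arrays all lay above the uninduced ones, at 11.87 to 11.93 against 11.73 to 11.80. scpl47 gave 0.46 ± 0.53 with overlapping groups.

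Autophagy, the delivery of cell contents to the vacuole in membrane-bound bodies, is active in differentiating vessel cells. Of 22 listed autophagy genes 10 were measured. By limma 0 of these rose and 0 fell, against 0.534% and 0% of all probes, with 1 at an unadjusted p under 0.05. The 10 were ATG3 and the ATG8 genes ATG8A to ATG8I. They therefore cover little more than 1 gene family and do not stand for the pathway. Their median change was 0.16 and 8 of the 10 were positive, where 45.8% of all probes were. The gene under that unadjusted p was ATG8H (AT3G06420), which codes for a small protein that is attached to autophagosome membranes. ATG8H gave 7.63, 7.73 and 7.81 on induced and 7.02, 7.18 and 6.84 on uninduced replicates 1 to 3. The groups stood 0.44 apart, and the difference was 0.71 ± 0.15 (SE; 95% confidence interval 0.34 to 1.07; limma adjusted p = 0.296), 0.60 in the run of 2 and 0.76 in the run of 4. ATG8F, a second gene with groups that did not overlap, gave 0.27 ± 0.13 (SE; limma adjusted p = 0.941).

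ATG8H and ATG8F were called, both higher, only with the run as a block together with a variance trend and robust estimation (limma adjusted p = 0.0322 and 0.0235, with 2.09% of probes higher in that fit). The next largest difference in the list was ATG8A at 0.24 ± 0.26 (SE). The vacuolar cathepsin B-type proteases AT1G02305 and AT4G01610 gave 0.10 and 0.09, with overlapping arrays, and were the 2 measured of 9 listed vacuolar proteases and nucleases. SERPIN1, an inhibitor of proteases including metacaspases and RD21, gave -0.08 ± 0.15 (SE) and was the only gene measured of 12 listed metacaspases and death regulators. None of these 3 passed the test.

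**Figure D5:**
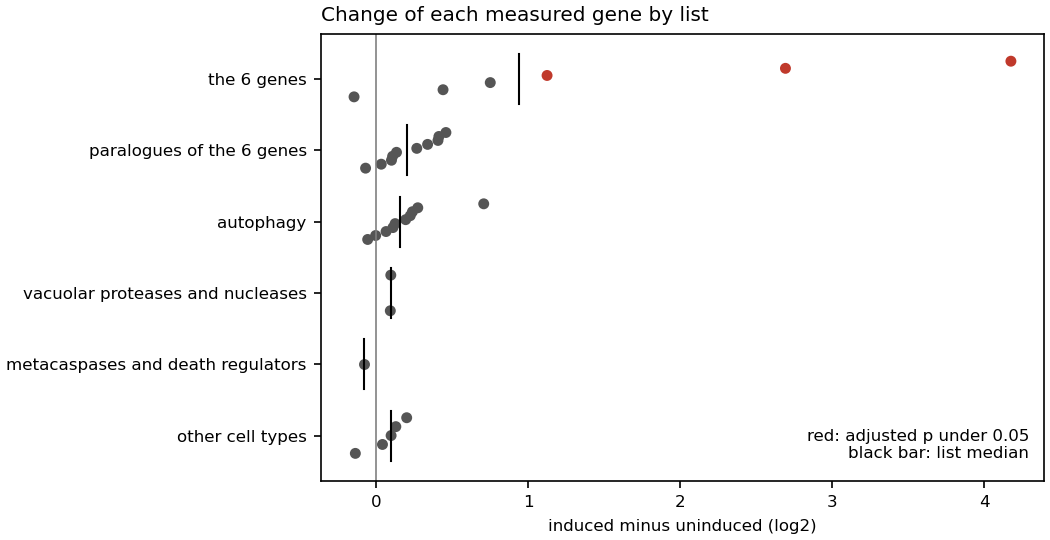
Induced minus uninduced log2 change (x axis) of each measured gene by list (y axis), with red points for a limma adjusted p under 0.05 and black bars for list medians. Only DMP4, EXI1 and PASPA3 are red; the paralogues lie between -0.07 and 0.46 and the autophagy genes between -0.06 and 0.71, where ATG8H is the highest.

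The 12 other listed vessel autolysis genes, which include the cysteine proteases XCP1 and XCP2, the metacaspase MC9 and the nucleases BFN1 and RNS3, had no probe of their own name and were not analysed here. The same holds for the 12 genes listed for the root cap and senescence death programmes, in which DMP4, EXI1 or PASPA3 can also be active. Of 10 markers listed for other cell types 5 were measured, and 0 rose and 0 fell by limma, with 0 at an unadjusted p under 0.05. Over all probes 0.534% rose and 0% fell, so 0 calls among 5 genes do not set these markers apart. The 5 were OPS (0.20 ± 0.16, SE) and SAPL (0.04 ± 0.51), listed for phloem, LHW (-0.14 ± 0.13) and PHV (0.13 ± 0.14), listed for procambium, and the photosynthesis gene RCA (0.10 ± 0.35). How far each of the 5 is confined to the cell type it was listed for, and absent from the vessel lineage, was not tested. Their mean level was 6.18 to 6.64 on induced and 6.16 to 6.47 on uninduced arrays, highest in both groups on the arrays of the run of 2. SAPL (3.57 to 5.09) and RCA (4.25 to 5.29) lay below the array median on every array. The part of the 5 markers in the results was not tested.

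The genes whose 6 centred values lay nearest to each of the 6, by Euclidean distance among all named genes, are given as a description. Nearest to DMP4 were AT5G12300, AT3G49330 and AT4G08160 (ATXYN3), at distances of 0.46, 0.67 and 0.71, and these differed by 4.34, 4.54 and 3.76. Of the 3, AT3G49330 passed the test (limma adjusted p = 0.0264). Nearest to EXI1 were AT5G07800 (distance 0.34), AT5G48290 (0.45) and AT1G52050 (0.45), all 3 of which rose, by 2.67, 2.77 and 2.47 (limma adjusted p 0.0207 to 0.0461).

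Nearest to PASPA3 were AT3G46720 (distance 0.17), AT2G34350 (0.19) and CLE14 (0.26), with differences of 1.06, 1.06 and 1.03, of which AT2G34350 passed the test (limma adjusted p = 0.0344). CLE14 codes for a small signalling peptide. Nearest to scpl48 were AT3G45850 (0.14), AT5G46230 (0.18) and AT5G22850 (0.19), with differences of 0.74 to 0.76 that did not pass it. Pearson's r with the member over the 6 arrays was 0.979 to 0.998 for these 12 genes. The 6 arrays share 2 groups and 2 runs, so any gene with the same group difference and run difference gives a high r. Neighbours were picked for values close to the member's own. Their similar changes, and the calls among them, follow from that choice and are no separate result.

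GAMMA-VPE and ALPHA-VPE had near neighbours too, though neither passed the test. Those of GAMMA-VPE were AT4G22530 (0.19), AT1G08005 (0.22) and AT1G18470 (0.24), with differences of 0.33 to 0.50. Those of ALPHA-VPE were AT5G56800 (0.13), AT5G46100 (0.13) and AT5G11290 (0.14), with differences between -0.14 and -0.05. r was 0.941 to 0.975 for the first 3 and 0.982 to 0.989 for the last 3.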

How the data were processed

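Total RNA from the 6 samples was hybridised to Affymetrix AraGene arrays. The authors deposited 1 value per probe and array, taken here as log2 since the values run from 0.30 to 14.05, and per the submitters' processing notes used Affymetrix Expression Console (version 1.3) to make them. The sources used here do not give the log base, summarisation, background correction, normalization between arrays or genome build, and coordinates are left out.

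Groups came from the stimulation label, and replicate numbers only name arrays. Of 38408 probes, 16722 had 1 gene in the array annotation, 759 several and 20927 none; symbols were updated by gene identifier through RefSeq. DMP4, EXI1 and PASPA3 appear there under their loci. limma 3.58.1 in R 4.3.3 (lmFit, eBayes without trend or robust estimation) compared the groups over all probes with no further normalization, and was tested on simulated data. Protein and promoter sequences were not used here.

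The 6 genes and the lists were chosen with earlier results of these data known. Named are the 6 genes, measured paralogues and vessel autolysis genes, up to 3 genes per other list with the largest change (or all called, and all 5 measured cell type markers), and the 3 nearest patterns per gene. Alternatives were trend with robust estimation, quantile normalization, median centring, leaving out the dimmest 25% of probes, array weights, the run as a block, the run of 4 alone, each array left out, single-gene probes and thresholds of 0.01 and 0.1. A run by induction term was added after the data were seen.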

Additional observations from a re-analysis of the deposited data

How the results depend on the processing

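The direction of DMP4, EXI1, PASPA3, scpl48 and GAMMA-VPE was the same in every alternative run. At the threshold of 0.05, DMP4 and EXI1 kept their calls under all alternatives that kept both groups whole and in the run of 4; at 0.01, with the other settings as reported, neither passed. With an array left out (changes of 3.77 to 4.72 and 2.51 to 2.94) they passed without uninduced replicate 1 and missed the threshold when any of the other 5 was left out, and they missed it in the run of 2 from the run by induction term (3.49, adjusted p = 0.136, and 2.56, adjusted p = 0.127), where 1 array a group is assumed to vary like the others. PASPA3 was not called after quantile normalization (1.16), median centring (1.15), in the run of 4 alone (1.13) or the run of 2 (1.11), or with any array left out (1.04 to 1.18). scpl48 was called with trend and robust estimation, without the dimmest 25% of probes, with the run as a block and with block, trend and robust estimation together (0.75 each; adjusted p = 0.00124, 0.0365, 0.0318 and 4.07e-04), and with array weights (0.72, adjusted p = 0.0164). After quantile normalization (0.76, adjusted p = 0.0749), median centring (0.78, adjusted p = 0.99996) and in the run of 4 (0.73, adjusted p = 0.181), limma did not call scpl48. ALPHA-VPE turned positive without induced replicate 3 (0.10, with a range of -0.38 to 0.10 over arrays left out) and in the run of 2 (0.11). The cause was not tested.

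Of the 6 genes, 3 passed as reported, 0 at a threshold of 0.01, and 0 to 2 with an array left out. With an array left out, limma gave 4 or 5 of the 6 at an unadjusted p under 0.05. In those fits 762 to 1626 of all 38408 probes were higher and 473 to 2329 lower at that p. As the 6 were chosen with results of these data known, the count is no test of them. Of 28 other listed genes, 0 passed as reported (1 at an unadjusted p under 0.05) and 2 with block, trend and robust estimation. The share of all probes higher was 0.534% as reported and 2.09% with block, trend and robust estimation. Over all probes, 205 were called as reported, 365 with trend and robust estimation, 323 after quantile normalization, 485 with array weights, 394 with the block, 1225 with block, trend and robust estimation, 106 among single-gene probes, 86 at a threshold of 0.01, and 56 to 154 with an array left out. The mean over a gene's probes was not run, as each of the 6 has 1 single-gene probe. No paired analysis was possible because the labels give no replicate numbers. With 3 arrays a group the precision is limited, and signal over background could not be judged.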
